A study of Mus musculus with 8 samples.

Results

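The guanylate-binding proteins (GBPs) and the immunity-related GTPases (IRGs) are 2 families of GTP-hydrolysing proteins that mouse cells make in response to interferon. A set of 10 genes of these families was described here, 4 GBP genes (Gbp2, Gbp3, Gbp7 and Gbp9) and 6 IRG genes (Irgm1, Irgm2, Igtp, Ifi47, Tgtp1 and Tgtp2). They were found by gene name among the 12823 rows of a read count table of mouse acute myeloid leukemia (AML) cells, and 10 of 10 were present. The 10 genes had been picked with the difference between the leukemias and the high level of Gbp2 and Tgtp1 in the library of new AML replicate 3 already known. Their own values are therefore given as a description, with no test.

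Leukemia was produced by transducing mouse bone marrow progenitors with MLL-AF9, a fusion oncogene, together with GFP, and by transplanting them into sublethally irradiated mice, which developed AML after about 2 months. Part of the GFP+ cells of this leukemia was kept as new AML, and the rest was passed through 5 serial transplantations, in non-irradiated recipients by the study's account, to give aggressive AML. Both leukemias were then grown in C57BL/6 mice with a normal immune system, GFP+ cells of the bone marrow were sorted, and their RNA was extracted. There were 4 libraries of each group, so both carry MLL-AF9 and GFP from a retroviral vector and they differ in transplantation history alone as far as the labels go. The labels call the 4 samples of a group biological replicates without saying that each came from its own mouse, so the p-values below measure the spread between these libraries. The labels give neither age nor sex. By the study's account its mice were young adults and those of this experiment were male, without saying whether that covers the marrow donor.

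GBPs and IRGs act in the cytosol, where they gather on pathogens and on the vacuoles that hold them and help to break these membranes open. Most members are nearly silent in resting cells. Interferon-gamma binds its receptor and, through the receptor-bound kinases JAK1 and JAK2, acts on the gamma-activated site (GAS) of target promoters. Type I interferon acts mainly on the interferon-stimulated response element (ISRE), to which IRF9 binds in a complex with STAT2 and which IRF1 and IRF8 can also recognise. Among the IRGs, the regulators Irgm1, Irgm2 and Igtp (also called Irgm3) sit on the cell's own membranes and hold the effectors Ifi47 (Irgd), Tgtp1 and Tgtp2 (both Irgb6) inactive there.

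The promoters show which of these motifs the genes carry. RefSeq promoter windows of the build GRCm38.p6, from 250 bases before to 50 bases after the gene start, were available for 9 of 10 genes, Gbp9 being the exception. They were searched on both strands for the GAS letters TTCNNNGAA and for the ISRE letters, which are GAAA, any 2 bases and GAAA again. Of all 32851 windows in the table, 8.3% held the GAS letters, 3.44% held the ISRE letters and 0.454% held both. Among the 9 genes, 5 held the GAS letters (Gbp7, Irgm2, Igtp, Tgtp1 and Tgtp2), 8 held the ISRE letters and 5 held both. The window of Ifi47 held neither, which says only that these letters are not in that window.

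The 4 IRG promoters below are shown because they share an arrangement of the motifs. Capitals mark the letters that match GAS, on the left, and ISRE, on the right, and each stretch is 57 bases of the gene's own strand, 5′ to 3′, that ends before the RefSeq gene.
Igtp, chr11:58199493-58199549, plus strand: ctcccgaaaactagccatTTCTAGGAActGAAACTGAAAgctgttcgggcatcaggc
Irgm2, chr11:58214884-58214940, plus strand: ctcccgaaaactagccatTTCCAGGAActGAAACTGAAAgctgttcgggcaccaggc
Tgtp1, chr11:48992296-48992352, minus strand: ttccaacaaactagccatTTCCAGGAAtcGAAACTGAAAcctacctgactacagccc
Tgtp2, chr11:49064255-49064311, minus strand: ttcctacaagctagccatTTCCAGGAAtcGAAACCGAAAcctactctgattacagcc
In each of them the GAS letters, 2 further bases and the ISRE letters follow each other without a break. Counted position by position without gaps, Igtp and Irgm2, neighbours on chromosome 11, differ at 2 of the 57 bases, and Tgtp1 and Tgtp2 differ at 13. Most of the 13 lie after the ISRE letters, where the stretches of Tgtp1 and Tgtp2 are shifted against each other. The 13 is therefore no count of separate base changes and cannot be set against the 2. The joined letters were searched in the same windows after this arrangement had been seen. They occur in 5 of the 32851 windows (0.0152%), which belong to these 4 genes and to Gm12185, a predicted gene of the same region that has no row in the count table.

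The remaining promoters carry the motifs singly or spaced apart. That of Gbp7 is shown because, of the GBP genes among the 10 that have a window, it alone holds both motifs. That of Irgm1 is shown because the groups of this gene were far apart. Those of Gbp2 and Gbp3 are shown because their spread between the new AML libraries was the widest and the narrowest of the 10 genes. The ISRE letters of the 3 GBP genes match on the opposite strand.
Gbp7, chr3:142530212-142530310, plus strand: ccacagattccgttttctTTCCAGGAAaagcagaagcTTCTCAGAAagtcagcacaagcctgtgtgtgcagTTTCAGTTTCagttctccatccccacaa
Gbp2, chr3:142620586-142620631, plus strand: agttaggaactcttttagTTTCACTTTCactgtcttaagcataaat
Gbp3, chr3:142559981-142560015, plus strand: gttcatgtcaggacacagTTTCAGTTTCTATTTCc
Irgm1, chr11:48871421-48871468, minus strand: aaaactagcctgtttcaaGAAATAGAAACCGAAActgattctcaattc
Gbp7 holds 2 GAS matches and 1 ISRE match. In Gbp3 and in Irgm1, 2 ISRE matches overlap. GENCODE extends transcripts of Gbp2 and Irgm1 into the stretches shown. A match of letters is a description and does not show that a factor binds there.

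The 8 libraries held between 7805544 and 9697777 counted reads. Over these unadjusted totals 1 read was worth 0.103 to 0.128 CPM, which differs slightly from its worth in the adjusted CPM below. CPM is the usual unit for read counts scaled to a common library total, here the total over the 12494 genes tested, adjusted by the trimmed mean of M values. Fold changes are written as log2FC, the log2 of aggressive AML over new AML, with a standard error (SE) from the edgeR fit. The cells were checked against markers. All 8 genes listed for myeloid leukemia, among them Kit, Mpo, Hoxa9 and Meis1, were in the table, with a summed level of 4529 to 5011 CPM in new AML and 3947 to 5650 CPM in aggressive AML. In the edgeR test 3 of the 8 rose (Kit, Elane and Meis1) and 2 fell (Itgam and Hoxa10). Over all genes tested, 8.15% rose and 10.2% fell. Of the 10 T cell markers 3 were in the table (9.25 to 12.7 CPM in new AML, 12.6 to 25.2 CPM in aggressive AML), 2 of them rose in the edgeR test, and the defining genes Cd3d, Cd3e, Cd3g, Cd4 and Cd8a were not. Of the 9 NK cell markers 2 were in the table (14.99 to 27.8 against 25.8 to 33.0 CPM) and 1 rose, without Ncr1, Gzmb and Prf1. T and NK cells are the main makers of interferon-gamma, and Ifng itself was not in the table. Neutrophil markers, 10 of 10 in the table, summed to 305 to 457 CPM in new AML and 148 to 198 CPM in aggressive AML, and 8 of them fell in the edgeR test (10.2% of all genes did). Dendritic cell markers, 3 of 6, summed to 37.6 to 60.6 and 9.52 to 14.3 CPM, macrophage markers, 5 of 8, to 82.9 to 146 and 56.0 to 90.9 CPM, B cell markers, 3 of 5, to 36.6 to 42.2 and 30.6 to 33.7 CPM, and erythroid markers, 9 of 9, to 27.8 to 102 and 10.1 to 54.7 CPM. Of the markers tested, 2 of 2 for dendritic cells, 1 of 4 for macrophages, 0 of 1 for B cells and 2 of 7 for erythroid cells fell. In these lists 0 rose. Siglech, a dendritic cell marker, was below 1 CPM in every aggressive AML library (at most 0.911 CPM). The neutrophil markers Mmp9 and Retnlg were mostly below 1 CPM there. These genes passed the filter of at least 1 CPM in at least 4 libraries through new AML, so their calls are given as a description. The part of these cell types in the results was not tested, and in bulk RNA fewer cells of a type and less RNA per cell cannot be told apart. The 4 Y-linked genes checked summed to 251 to 287 CPM in the new AML libraries and had no reads in the aggressive AML libraries. The labels derive aggressive AML from the same leukemia as new AML, although this difference is complete between the groups. Its cause was not tested. In every fold change below, a difference in the origin of the cells and the transplantation history cannot be told apart.

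New AML replicate 3 stood apart in the GTPase genes. It had the highest level of the 4 new AML libraries, and of all 8 libraries, for 10 of 10 genes. Over all genes tested, it was the highest new AML library for 28.2%. Its level divided by the median of the other 3 new AML libraries had a median of 2.08 over the 10 genes and ranged from 1.37 for Gbp3 to 11.05 for Gbp2, against a median of 0.995 over all genes tested. In 4 of the 10 genes it was at least 2 times the highest other new AML library, which was so for 42 genes in all (0.336%), and in 6 it was at least 2 times the median of the other new AML libraries (1.38% of all genes). These ratios include the values by which the genes were picked. New AML replicate 2 was the lowest new AML library for 6 of the 10. The total of replicate 3, 9025602 reads, lay inside the range of the others, and its summed marker levels were first among the new AML libraries only for B cells, at 42.2 CPM, and last for macrophage and dendritic cells. Because of this library, the fold changes of the 10 genes below are given with and without it.

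Summed over the 10 genes, the level was 250, 230, 533 and 267 CPM in new AML replicates 1 to 4 and 178, 184, 178 and 201 CPM in aggressive AML replicates 1 to 4. The groups did not overlap, which leaving out replicate 3, the highest library, cannot change. Gbp3 made up 26.8% of this sum in new AML replicate 3 and up to 53.9% in the other libraries. The median coefficient of variation (CV, the SD as a share of the mean) of the 10 genes was 45.5% in new AML, 14.2% in new AML without replicate 3 and 26.2% in aggressive AML. The same medians over all genes tested were 10.6%, 9.26% and 12.3%.

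**Figure D1:**
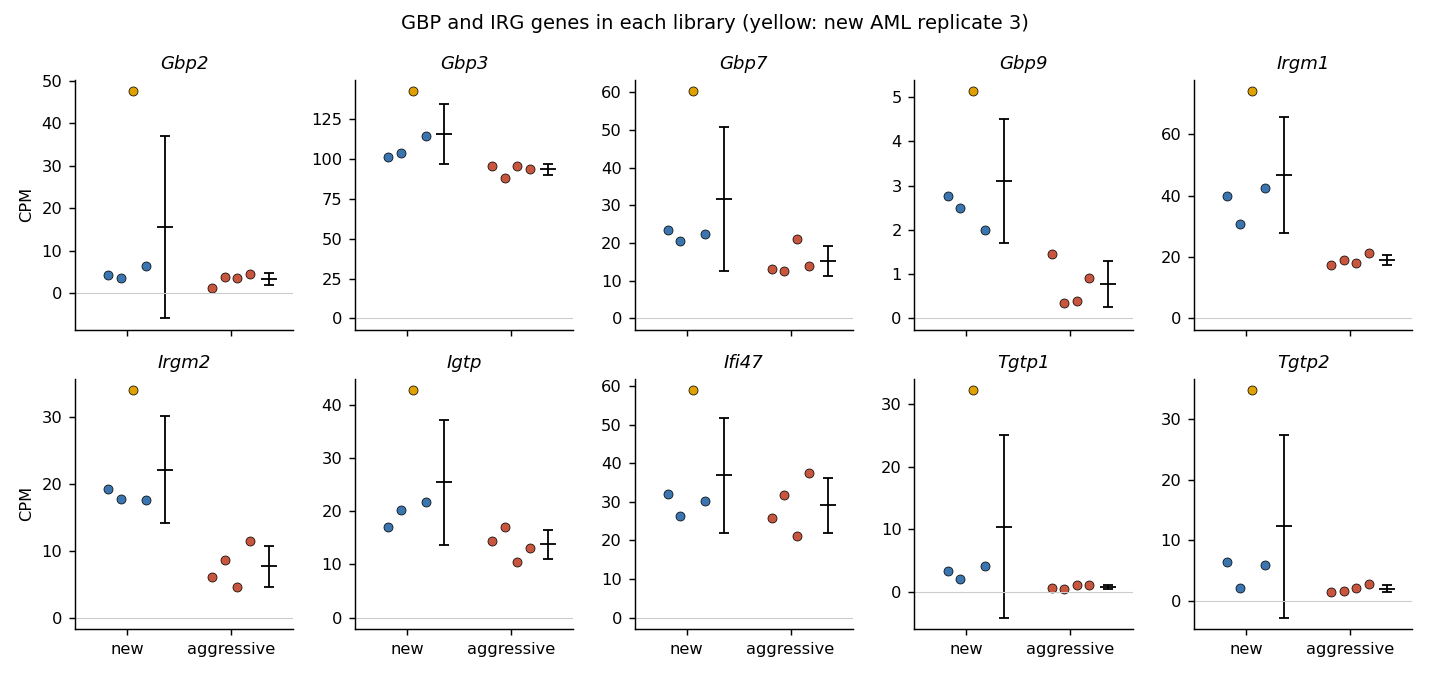
Each panel shows the CPM of a gene (linear axis) in the 4 new AML and the 4 aggressive AML libraries, with points in replicate order and bars for the mean ± SD (n = 4). New AML replicate 3, in yellow, is the highest of the 8 libraries in each of the 10 panels, from 5.13 CPM for Gbp9 to 143 CPM for Gbp3.

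Among the GBP genes, Gbp2 is a lipid-anchored GBP that opens pathogen vacuoles and helps to set off inflammasomes. It lies on chromosome 3 (GRCm38 142620663 to 142638008, plus strand) in a cluster with Gbp3, Gbp5 and Gbp7. It was measured at 4.31, 3.57, 47.6 and 6.35 CPM in new AML replicates 1 to 4 and at 1.20, 3.77, 3.50 and 4.55 CPM in aggressive AML replicates 1 to 4. Apart from replicate 3, the libraries of the 2 groups overlapped. The means were 15.5 ± 21.5 CPM in new AML and 3.26 ± 1.44 CPM in aggressive AML (SD, n = 4), log2FC -2.24 (SE 0.71), aggressive over new. Without replicate 3 the new AML mean was 4.74 ± 1.44 CPM (n = 3) and the log2FC was -0.54 (SE 0.37). That library held 427 reads of Gbp2 and the other new AML libraries held 30 to 57.

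Gbp7, a GBP that has been tied to the control of intracellular bacteria, lies on the same cluster (142530336 to 142550151, plus strand). Its levels were 23.5, 20.6, 60.4 and 22.3 CPM in new AML and 13.3, 12.7, 21.1 and 14.0 CPM in aggressive AML. Here 3 of the 4 aggressive AML libraries lay below all new AML libraries, and aggressive AML replicate 3, at 21.1 CPM, lay above new AML replicate 2. The log2FC was -1.06 (SE 0.30), and -0.54 (SE 0.18) without new AML replicate 3. Gbp3 (142560016 to 142573213, plus strand) was at 102, 104, 143 and 114 CPM in new AML and 96.0, 88.5, 95.7 and 94.1 CPM in aggressive AML. Its groups did not overlap, and with all libraries its difference was the smallest of the 10, log2FC -0.31 (SE 0.10). Without replicate 3 its log2FC was -0.19 (SE 0.08). Its CV over the aggressive AML libraries was 3.73%.

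Gbp9, a gene of the second GBP cluster on chromosome 5 (105076464 to 105110357, minus strand), had few reads. It was at 2.77, 2.50, 5.13 and 2.01 CPM in new AML and at 1.45, 0.353, 0.389 and 0.911 CPM in aggressive AML, where only 1 library reached 1 CPM. The groups did not overlap. The log2FC was -1.97 (SE 0.45), and -1.62 (SE 0.45) without new AML replicate 3. In the GENCODE annotation transcripts of Gbp8 run across Gbp9, so reads of the 2 genes may not be separated.

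Of the 3 regulatory IRG genes, Irgm1 and Irgm2 had groups that did not overlap, and those of Igtp touched. Irgm1, on chromosome 11 (48865245 to 48871420, minus strand), encodes a regulator that is also needed for the survival and function of blood stem cells and for autophagy. It was at 40.0, 30.8, 74.1 and 42.4 CPM in new AML and at 17.5, 19.1, 18.1 and 21.3 CPM in aggressive AML. Every aggressive AML library lay below every new AML library, and the aggressive AML libraries were close to each other. The means were 46.8 ± 18.8 and 19.0 ± 1.66 CPM (SD, n = 4), log2FC -1.30 (SE 0.21), and -0.99 (SE 0.14) without replicate 3. No stretch of 75 bases in its transcripts occurs in another listed GTPase gene.

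Irgm2 (chromosome 11, 58214977 to 58222783, plus strand), which restrains the non-canonical inflammasome, showed the same separation. Its levels were 19.2, 17.7, 34.0 and 17.6 CPM in new AML and 6.02, 8.60, 4.54 and 11.5 CPM in aggressive AML. The log2FC was -1.52 (SE 0.27), and -1.24 (SE 0.24) without replicate 3. Its neighbour Igtp (58199556 to 58207592, plus strand), which guards the cell's own membranes and lipid droplets, had a smaller difference, at 16.9, 20.2, 42.7 and 21.7 CPM in new AML and 14.5, 17.0, 10.5 and 13.1 CPM in aggressive AML. The groups touched, since aggressive AML replicate 2 (17.0 CPM) and new AML replicate 1 (16.9 CPM) were level. The log2FC was -0.88 (SE 0.25), and -0.51 (SE 0.17) without replicate 3. Thus the neighbours, whose promoter stretches differ at 2 bases, had fold changes of different size, a difference that was not tested. In GENCODE a transcript of Irgm2 begins inside Igtp, and 7.8% of the 75-base words of Igtp also occur in Irgm2.

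The effector IRG genes ranged from Ifi47, whose groups were mixed, to Tgtp1, which had the largest fold change of the 10. Ifi47 (chromosome 11, 49076587 to 49096987, plus strand) was at 32.1, 26.3, 59.0 and 30.3 CPM in new AML and at 25.9, 31.8, 21.3 and 37.6 CPM in aggressive AML. Its groups were interleaved apart from replicate 3. The means were 36.9 ± 14.9 and 29.1 ± 7.09 CPM, log2FC -0.34 (SE 0.22), and -0.02 (SE 0.17) without replicate 3.

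Tgtp1 (48985329 to 48992246, minus strand) and Tgtp2 (49057196 to 49064212, minus strand) encode near-identical proteins that coat pathogen vacuoles. Tgtp1 was at 3.39, 2.14, 32.2 and 4.13 CPM in new AML and at 0.723, 0.471, 1.17 and 1.14 CPM in aggressive AML. These groups did not overlap. The log2FC of Tgtp1 was -3.56 (SE 0.81) with all libraries and -1.87 (SE 0.40) without replicate 3. Tgtp2 was at 6.47, 2.14, 34.8 and 6.02 CPM in new AML and at 1.57, 1.65, 2.20 and 2.73 CPM in aggressive AML. Its groups overlapped through new AML replicate 2 alone. The log2FC of Tgtp2 was -2.59 (SE 0.66), and -1.26 (SE 0.38) without replicate 3.

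The 2 Tgtp genes cannot be read apart with certainty, because 74.6% of the 75-base words of Tgtp1 occur in Tgtp2 and 81.4% of those of Tgtp2 in Tgtp1. The counting of reads that fit both is not stated. Added together before the fit, the pair had 9.86, 4.28, 67.0 and 10.1 CPM in new AML and 2.29, 2.12, 3.37 and 3.87 CPM in aggressive AML, so the summed groups did not overlap. The log2FC of the sum was -2.96 (SE 0.69), with means of 22.8 ± 29.6 and 2.91 ± 0.845 CPM. Without replicate 3 the new AML mean of the sum was 8.09 ± 3.31 CPM (n = 3), 2.78 times that of aggressive AML. Tgtp1 took between 22.2% and 50% of the pair, and both genes were at least 5.78 times the median of the other new AML libraries in replicate 3.

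**Figure D2:**
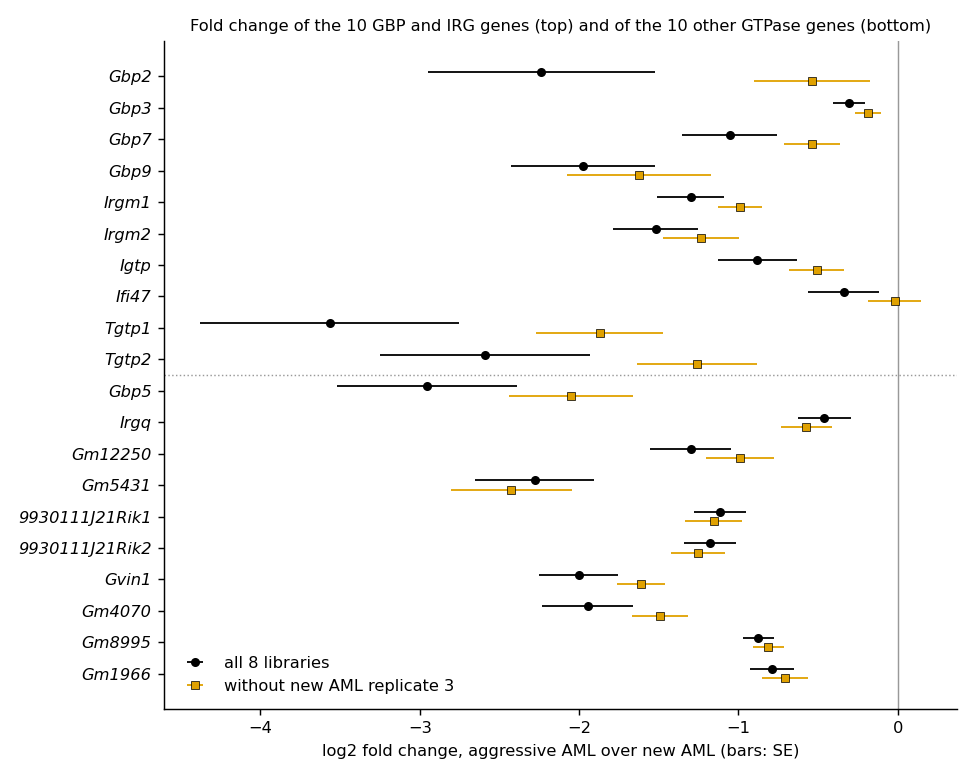
Log2 fold changes (aggressive AML over new AML, edgeR) with SE bars are shown for the 10 GBP and IRG genes above the dotted line and for 10 other GTPase genes below it, with all 8 libraries (black circles) and without new AML replicate 3 (yellow squares). Leaving out that library moved Gbp2 from -2.24 to -0.54 and Tgtp1 from -3.56 to -1.87, and left the 10 genes at or below -0.02.

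Taken per kilobase of exon, which allows levels to be compared between genes, Gbp3 was highest in both groups, with a median of 33.5 CPM per kb in new AML and 29.1 CPM per kb in aggressive AML. Ifi47 (12.6 and 11.7 CPM per kb) and Igtp (10.4 and 6.81 CPM per kb) followed in both. In new AML the order went on with Irgm1, Irgm2, Gbp7, Tgtp2, Gbp2, Tgtp1 and Gbp9, and only Gbp3 was clear of its neighbour, since the ranges of all the later neighbours overlapped. In aggressive AML, where the order was Irgm1, Gbp7, Irgm2, Gbp2, Tgtp2, Tgtp1 and Gbp9 after Igtp, the first 3 genes were each clear of the next and so was Tgtp2 of Tgtp1. Gbp9 was lowest in both groups, at 0.509 and 0.126 CPM per kb.

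Taking the 10 genes together as a description, 9 were called lower in aggressive AML at an adjusted p under 0.05 (edgeR), as were 10.2% of all 12494 genes tested, and 0 were called higher, against 8.15% of all genes (2296 genes, 18.4%, in either direction). Ifi47 was not called. The genes were picked with this comparison known, so nothing is read from that count. In 5 of the 10 (Gbp3, Gbp9, Irgm1, Irgm2 and Tgtp1) every aggressive AML library lay below every new AML library. This was so for 12% of all genes, and for 16.1% without replicate 3. Leaving out replicate 3 cannot change it for the 10 genes, because it is the highest new AML library in each of them. The median log2FC was -1.41, against 0.00 over all genes tested. Without new AML replicate 3 the median was -0.76, and 6 genes were called lower (10.2% of all genes), with Gbp2, Gbp3 and Igtp no longer among them. Of the 10, 8 reached 1 CPM in all 8 libraries, and Gbp9 and Tgtp1 passed the filter on low counts with 5 and 6 libraries.

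The GTPase genes outside the 10 were tested. Of 22 further GBP, IRG and very large inducible GTPase genes listed, 10 had a row in the table and all 10 were tested. In the edgeR quasi-likelihood test, 9 of them fell in aggressive AML (10.2% of all genes did), 0 rose (also 0 at an unadjusted p under 0.05, with DESeq2 and with limma), and in the same 9 the groups did not overlap. Their median log2FC was -1.24, and -1.21 without new AML replicate 3. Gbp5, a prenylated GBP that promotes inflammasome assembly, went from 11.2 ± 10.5 to 1.42 ± 0.911 CPM (SD, n = 4), log2FC -2.96 (SE 0.57, adjusted p = 0.0021). Gbp5 was at 6.26, 5.23, 27.0 and 6.47 CPM in new AML and at 1.81, 0.471, 0.907 and 2.50 CPM in aggressive AML, so it too was high in replicate 3, without which log2FC was -2.05 (SE 0.39, adjusted p = 0.0025). Gm12250, the gene of the effector Irgb10, which attacks bacterial membranes, went from 24.8 ± 9.99 to 10.05 ± 3.24 CPM, log2FC -1.30 (SE 0.25, adjusted p = 0.0025).

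Other GTPase genes fell without the peak in replicate 3. Gm5431, a predicted gene next to Irgm1, was at 2.98, 5.47, 2.79 and 5.35 CPM in new AML and at 0.964, 0.471, 0.778 and 1.14 CPM in aggressive AML, log2FC -2.28 (SE 0.37, adjusted p = 6.4e-04). It was lowest in replicate 3 among the new AML libraries, at 0.521 times the median of the others. In aggressive AML only replicate 4 reached 1 CPM, so Gm5431 passed the filter on low counts through new AML. Its call, which the count above includes, is therefore given as a description. 9930111J21Rik2, which lies between Tgtp1 and Tgtp2, was at 48.3, 51.8, 41.8 and 57.7 CPM in new AML and at 18.9, 20.9, 17.0 and 31.2 CPM in aggressive AML, log2FC -1.18 (SE 0.16, adjusted p = 1.6e-04). Here too replicate 3 was the lowest new AML library and the groups were clear of each other. Its copy 9930111J21Rik1 had log2FC -1.12 (SE 0.16, adjusted p = 2.3e-04), and 74.3% of its 75-base words occur in 9930111J21Rik2.

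The very large inducible GTPase genes, whose products are several times the size of a GBP, lie on chromosome 7. Gvin1 was at 176, 156, 389 and 187 CPM in new AML and at 42.1, 63.4, 47.0 and 73.5 CPM in aggressive AML, log2FC -2.004 (SE 0.25, adjusted p = 6.5e-05). Even its lowest new AML library was above 2 times its highest aggressive AML library. Gm4070, which shares 93.9% of its 75-base words with Gvin1, moved with it (-1.95, SE 0.29, adjusted p = 2.7e-04), and reads of the 2 may not be separated. Gm8995 had 385 ± 46.8 and 210 ± 21.6 CPM (log2FC -0.87, SE 0.10, adjusted p = 2.3e-05). Gm1966 had 284 ± 48.4 and 164 ± 34.1 CPM (log2FC -0.79, SE 0.14, adjusted p = 0.0011). Irgq, a distant IRG relative, did not pass the test, with 28.0 ± 4.64 and 20.3 ± 4.69 CPM (log2FC -0.46, SE 0.17, adjusted p = 0.064), but did so without new AML replicate 3 (adjusted p = 0.023) or without aggressive AML replicate 1 (adjusted p = 0.033).

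New AML replicate 3 was the highest new AML library for 6 of the 10 other GTPase genes, for 8 of 19 genes of interferon signalling, for 10 of 15 other interferon-gamma targets and for 7 of 19 partner genes, against the 28.2% of all genes given above.

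**Figure D3:**
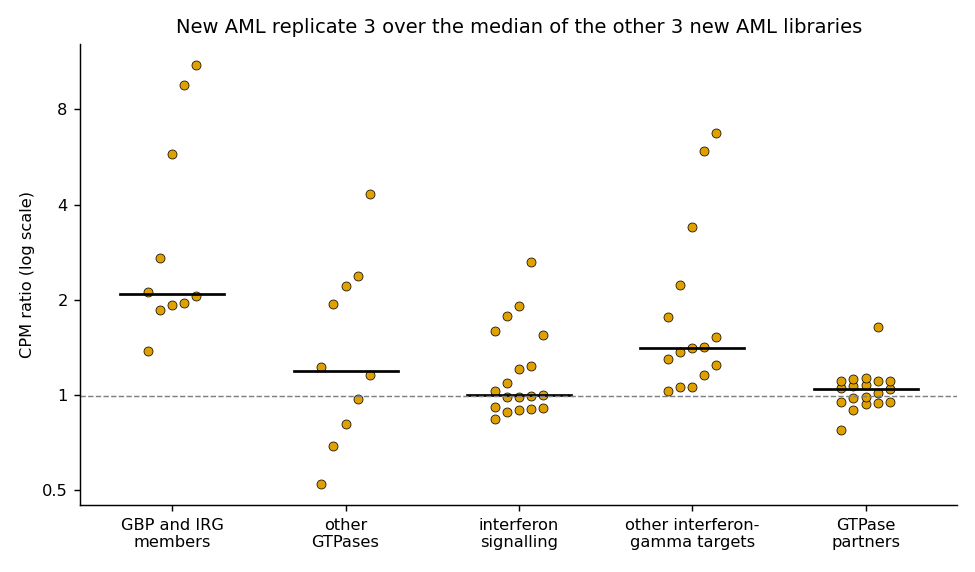
Each point is the CPM of a gene in new AML replicate 3 over the median of the other 3 new AML libraries (log axis), grouped by list, with a bar at the median of the list and a dashed line at the median of all genes tested, 0.995. The medians were 2.08 for the GBP and IRG genes, 1.19 for the other GTPases, 0.996 for interferon signalling, 1.41 for other interferon-gamma targets and 1.05 for the GTPase partners.

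Upstream of these genes, 21 genes of interferon signalling were listed, 20 were in the table and 19 were tested, Socs3 having too few counts. Of these 12 fell (10.2% of all genes did), 1 rose and 6 did not pass the test, with a median log2FC of -0.43. The 2 chains of the interferon-gamma receptor went in opposite directions. Ifngr2, the signalling chain, went from 60.8 ± 0.893 to 38.8 ± 3.03 CPM (log2FC -0.65, SE 0.09, adjusted p = 1.5e-04), whereas Ifngr1, the ligand-binding chain, went from 374 ± 29.8 to 486 ± 85.1 CPM (log2FC 0.38, SE 0.10, adjusted p = 0.020). The rise of Ifngr1 was not called without new AML replicate 1 (log2FC 0.32, adjusted p = 0.066), and 1 library, aggressive AML replicate 3 at 612 CPM, was well above the other aggressive AML libraries.

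Several factors that act at the ISRE fell. Irf9 had log2FC -1.04 (SE 0.10, adjusted p = 4.5e-06), Stat2 of -0.52 (SE 0.11, adjusted p = 0.0042), Irf8, at 627 ± 33.2 and 432 ± 54.1 CPM, of -0.54 (SE 0.09, adjusted p = 6.6e-04), and Irf7, an amplifier of the type I response, of -1.85 (SE 0.23, adjusted p = 7.1e-05). Usp18, a brake on the type I receptor that interferon itself induces, showed the largest fall of the list, from 14.6 ± 6.21 to 2.89 ± 1.25 CPM (log2FC -2.32, SE 0.33, adjusted p = 2.1e-04). Irf7 (41.8 CPM) and Usp18 (22.9 CPM) were both highest in new AML replicate 3. Without that library log2FC was -1.54 for Irf7 (SE 0.17, adjusted p = 3.7e-05) and -2.02 for Usp18 (SE 0.31, adjusted p = 6.0e-04).

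The remaining calls of the list were smaller. Jak2 (log2FC -0.43, adjusted p = 0.011) and the type I receptor chains Ifnar1 (-0.38, adjusted p = 0.0048) and Ifnar2 (-0.43, adjusted p = 0.0015) fell. Irf1, a GAS-driven factor that in turn drives GBP genes, had 83.0 ± 21.1 and 57.4 ± 8.66 CPM and log2FC -0.53 (SE 0.15, adjusted p = 0.023). Its call was lost without new AML replicate 3 (log2FC -0.34, adjusted p = 0.056), without aggressive AML replicate 2 (adjusted p = 0.052) or without aggressive AML replicate 3 (adjusted p = 0.053). Tyk2, a kinase of the type I receptor, had log2FC -0.27 (adjusted p = 0.043) and lost its call when any 1 of 6 libraries was left out (new AML replicates 2, 3 and 4 and aggressive AML replicates 1, 2 and 3), with adjusted p between 0.039 and 0.12 over the 8 libraries left out in turn. The kinase Jak1 (-0.17, adjusted p = 0.13), the repressor Irf2 (-0.30, adjusted p = 0.080) and the brakes Socs1 (-0.55, adjusted p = 0.30), Ptpn2 (0.09, adjusted p = 0.56), Ptpn6 (-0.20, adjusted p = 0.079) and Pias1 (-0.17, adjusted p = 0.24) did not pass the test.

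**Figure D4:**
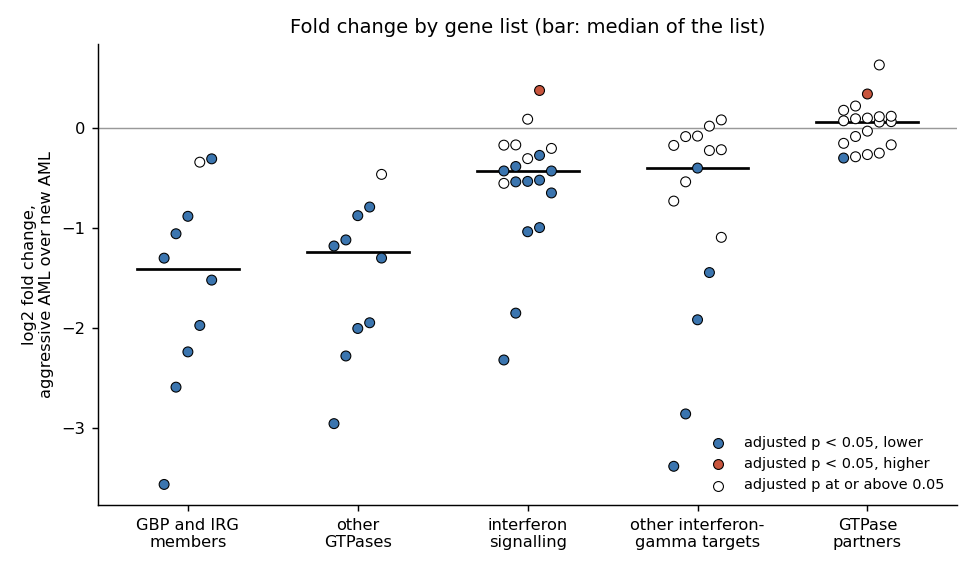
Each point is the log2 fold change of a gene (aggressive AML over new AML, edgeR), grouped by list, with blue for called lower, red for called higher, white for not called at an adjusted p under 0.05, and a bar at the median of the list. The medians were -1.41 for the 10 GBP and IRG genes, -1.24 for the other GTPases, -0.43 for interferon signalling, -0.40 for other interferon-gamma targets and 0.07 for the GTPase partners.

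Interferon-gamma targets that are no GTPases gave a mixed picture. Of 20 listed, 15 were in the table and tested, 5 fell (10.2% of all genes did), 0 rose (8.15% of all genes did, and here also 0 at an unadjusted p under 0.05, with DESeq2 and with limma) and 10 did not pass the test of edgeR, and the median log2FC was -0.40. Cd74, the invariant chain of MHC class II, went from 11.8 ± 4.18 to 1.13 ± 0.886 CPM (log2FC -3.38, SE 0.41, adjusted p = 5.2e-05). The MHC class II chains themselves did not pass the test, with log2FC of -0.73 for H2-Aa (adjusted p = 0.18), 0.08 for H2-Ab1 (adjusted p = 0.70) and -0.54 for H2-Eb1 (adjusted p = 0.44). Ly6a, which encodes the surface protein Sca-1, went from 4.46 ± 4.70 to 0.603 ± 0.260 CPM (log2FC -2.86, SE 0.65, adjusted p = 0.0065), and was at 11.5 CPM in new AML replicate 3 and at no more than 2.50 CPM in the other new AML libraries. Without that library log2FC of Ly6a was -1.79 (SE 0.43, adjusted p = 0.011). Ly6a was below 1 CPM in every aggressive AML library (0.236 to 0.797 CPM), so it passed the filter on low counts through new AML alone. Its call is therefore given as a description. Parp14, an ADP-ribosyltransferase, had log2FC -1.44 (SE 0.16, adjusted p = 3.0e-05). Serpina3g, a protease inhibitor, was at 9.96, 7.97, 66.9 and 14.8 CPM in new AML and at 6.02, 10.4, 4.54 and 5.35 CPM in aggressive AML, high in replicate 3 alone, as Gbp2 was. Its log2FC of -1.92 (SE 0.56, adjusted p = 0.026) became -0.73 (SE 0.28, adjusted p = 0.088) without replicate 3, and its call was also lost without aggressive AML replicate 1, 3 or 4 (adjusted p = 0.063, 0.057 and 0.057), with DESeq2 (adjusted p = 0.053) and with limma (adjusted p = 0.059). Tap1, a peptide transporter, had log2FC -0.40 (SE 0.10, adjusted p = 0.015), which was not called without aggressive AML replicate 2 (-0.36, adjusted p = 0.0503).

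The immunoproteasome genes Psmb8 (-0.08, adjusted p = 0.57), Psmb9 (-0.22, adjusted p = 0.20) and Psmb10 (-0.08, adjusted p = 0.61), the MHC class I activator Nlrc5 (-0.22, adjusted p = 0.34) and Wars (0.02, adjusted p = 0.89) did not pass the test. Of these, Psmb8, Psmb9, Psmb10 and Nlrc5 were highest in new AML replicate 3 of the 8 libraries. Nlrc5 was at 101, 96.1, 169 and 90.0 CPM in new AML and between 93.99 and 102 CPM in aggressive AML. Apart from that library, the 2 groups of Nlrc5 overlapped. The chemokine gene Cxcl10 had 2.05, 1.55, 5.24 and 1.45 CPM in new AML and between 0.518 and 2.53 CPM in aggressive AML, log2FC -1.09 (SE 0.52, adjusted p = 0.16), which passed the test without aggressive AML replicate 1 (adjusted p = 0.045). The genes Cxcl9, Ciita, Batf2, Ido1 and Nos2 had no row.

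The proteins that GBPs and IRGs work with were also measured. IRGs and GBPs are brought to their targets by the ubiquitin-like conjugation system of autophagy. Some GBPs are anchored after prenyl transfer, and caspases and gasdermin D act after GBPs. Of 19 such genes tested, 1 fell (10.2% of all genes did), 1 rose (8.15% of all genes did) and 17 did not pass the test, with a median log2FC of 0.07. Gsdmd, the pore-forming protein of pyroptosis, went from 126 ± 10.2 to 102 ± 11.6 CPM (log2FC -0.30, SE 0.09, adjusted p = 0.036). Traf6, a ubiquitin ligase, went from 66.3 ± 5.83 to 84.2 ± 14.9 CPM (log2FC 0.34, SE 0.11, adjusted p = 0.048). The call of Gsdmd was lost without new AML replicate 1, 3 or 4 or aggressive AML replicate 3 or 4, at adjusted p of up to 0.104. The call of Traf6 was lost without new AML replicate 2, 3 or 4 or aggressive AML replicate 1 or 3, at adjusted p of up to 0.136. The conjugation genes Atg3, Atg5, Atg7, Atg12 and Atg16l1 had log2FC between -0.08 and 0.22, and Casp1, at 72.7 ± 6.93 and 60.6 ± 5.24 CPM, had -0.26 (SE 0.10, adjusted p = 0.066). Casp1 passed the test without new AML replicate 1 (adjusted p = 0.038) or without aggressive AML replicate 3 (adjusted p = 0.025).

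The genes whose profile over the 8 libraries was most like the mean profile of the 10 genes were found by the root mean square (RMS) difference of centred log2(CPM + 1) values. The 5 closest genes outside the 10 were Gm17757 (RMS 0.189), Ube2l6 (0.203), Gm18853 (0.225), Parp12 (0.228) and Gm12250 (0.245), against a median of 0.745 over all genes tested. The 10 genes themselves lay between 0.188 for Irgm1 and 0.638 for Tgtp1. Ube2l6 encodes the conjugating enzyme of ISG15, and was at 4.62, 2.74, 10.9 and 4.57 CPM in new AML and at 1.93, 2.12, 2.85 and 3.19 CPM in aggressive AML. Parp12, an ADP-ribosyltransferase, was at 8.01, 5.11, 18.7 and 10.6 CPM in new AML and at 3.01, 3.53, 4.93 and 5.01 CPM in aggressive AML. Both were highest in new AML replicate 3, as the 10 genes were, which follows from choosing them by likeness to that profile. Gm17757, which RefSeq lists as the pseudogene Gm18852, and the pseudogene Gm18853 lie inside Gm4070 and Gvin1 on chromosome 7, so their reads may belong to those genes.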

How the data were processed

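Poly(A) RNA of sorted GFP+ leukemia cells was sequenced in 8 libraries, 4 per group, with group and replicate as the sample titles give them. Per the study's methods, the authors aligned paired reads to mm10 with HISAT2, counted them per gene with Rsubread and removed genes below 1 CPM, with the annotation and strand setting not stated. The values deposited by the authors are named as CPM but are whole-number read counts with differing totals, so they were used as counts. Instead of the limma test of the methods, the comparison used the edgeR (4.0.16, R 4.3.3) quasi-likelihood test with TMM scaling (factors 0.986 to 1.01), the group alone as term, and genes of at least 1 CPM in at least 4 libraries, which left 12494 and removed 329 of 12823 rows. The table has 1 repeated name and 19 names turned into dates, none of them among the genes described. P-values were two-sided and adjusted by Benjamini-Hochberg over all genes tested (threshold 0.05), and SE was the log2 fold change over the square root of F. The fit was tested on simulated data. Alternatives were RLE factors, library totals alone, no filter, DESeq2 (1.42.0), limma (3.58.1) on log2(CPM + 1), a replicate block, each library left out, and Tgtp1 and Tgtp2 summed. Promoters and gene positions are from RefSeq (GRCm38.p6), transcripts and exon lengths from GENCODE M21 (GRCm38, the same assembly as mm10).

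The genes described and the gene lists were chosen with earlier results of these data known. All 10 genes are named, every gene of a list may be named where its list is described (values of 1 gene of interferon signalling are not reported here, though list counts and medians include it), and the 5 most like genes are named by the smallest RMS difference. The depth of 7805544 to 9697777 reads makes 3 reads worth 0.309 to 0.384 CPM over the unadjusted totals. Such depth limits the precision of Gbp9, Tgtp1, Gbp5, Gm5431, Ly6a and Cd74 in aggressive AML.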

Additional observations from a re-analysis of the deposited data

Results flagged for a closer look

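A library was set apart where its gap to the nearest of the other 3 libraries of its group exceeded, as a share of the range of the group, Dixon's critical value for groups of 4. This was so in 20 of 108 groups examined, and 15 of the 20 were new AML replicate 3. The groups were those of the GBP and IRG genes, the other GTPases, interferon signalling and the other interferon-gamma targets. Partner genes were not examined in this way, so the counts do not cover them. Chance gives about 1 in 20 groups, but the genes of a list are not independent of each other, and the high level of Gbp2 and Tgtp1 in this library was known when the 10 GBP and IRG genes were picked, so these counts are a description.

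Among the GBP and IRG genes, new AML replicate 3 stood apart for Gbp2 (47.6 CPM), Gbp7 (60.4 CPM), Irgm2 (34.0 CPM), Tgtp1 (32.2 CPM) and Tgtp2 (34.8 CPM). Among the other GTPase genes, it did so for Gbp5 (27.0 CPM), Gvin1 (389 CPM) and Gm4070 (129 CPM). Among the other interferon-gamma targets, it did so for Cxcl10 (5.24 CPM), Psmb9 (256 CPM), Psmb10 (178 CPM), Tap1 (376 CPM), Nlrc5 (169 CPM), Serpina3g (66.9 CPM) and Ly6a (11.5 CPM). In each of these it was the highest of the 4 new AML libraries.

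The other 5 values were in other libraries. New AML replicate 4 was high for 9930111J21Rik1 (34.2 CPM) and Jak2 (81.3 CPM). Aggressive AML replicate 3 was high for Gbp7 (21.1 CPM) and Ifngr1 (612 CPM), and low for Tyk2 (88.8 CPM).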

How the results depend on the processing

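Over 1022 fold changes of single genes recomputed under the alternatives, 974 kept their side of the threshold or, for the 10 genes, which carry no test, moved by less than the spread between replicates, 31 lost a call, 11 gained a call, 6 values of Gbp2, Gbp9, Tgtp1 and Tgtp2 moved by more than that spread, and 0 called values reversed. Among the first, 10 values of 8 genes, none of them called, changed sign. Of the 8 libraries left out in turn, new AML replicate 3, whose high values were known when the genes were picked, moved the median log2 fold change of the 10 genes furthest, to -0.76 from -1.41. Calls of the 10 went from 9 to 6 without it, as they did without aggressive AML replicate 1, 2 or 4. Leaving out each library in turn gave 6 to 9 of the 10 called lower with medians from -1.57 to -0.76, 9 to 10 of the other GTPases (medians -1.47 to -1.13), 10 to 12 interferon signalling genes lower (medians -0.46 to -0.38) and 0 to 1 higher, 4 to 5 other targets (medians -0.44 to -0.30), 0 to 2 partners lower and 0 to 1 higher (medians -0.047 to 0.097), and 1534 to 2381 genes in all. Gbp2, Gbp3 and Gbp7 were not called without aggressive AML replicate 1, 2 or 4, Gbp2 and Gbp3 without aggressive AML replicate 3, and Gbp3 without new AML replicate 4. With library totals alone and with limma, 0 partners were called higher. The 10 genes had 8 calls with RLE factors, 7 with limma and 6 with DESeq2, which gave no adjusted p for Gbp2 and Tgtp1.

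Replicate numbers did not pair the samples: deviations of same-numbered libraries correlated at 0.10, -0.04, -0.07 and 0.20. With the replicate block, 2367 genes were called, against 2296, with 9 of the 10 genes and 10 of the other GTPases among them, Irgq being added (adjusted p = 0.021). Under the same block Irf2 (adjusted p = 0.039) and Pggt1b (adjusted p = 0.049) gained and Gsdmd (adjusted p = 0.053) and Serpina3g (adjusted p = 0.061) lost a call. The cause of these changes was not tested. Depth limits Gbp9 and Tgtp1, whose aggressive AML libraries hold few reads.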
